A study of Mus musculus with 24 samples.

Results

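The genes described here are 9 direct targets of transforming growth factor beta (TGF-beta) and bone morphogenetic protein (BMP) signalling: Ccn1 (Cyr61), Ccn2 (Ctgf), Id1, Id2, Id3, Pmepa1, Smad7, Skil and Tgfbi. They were chosen by name from 18194 genes with a probe set that names a single gene, and all 9 were among the 13850 genes bright enough to be tested. They were read by 21 probe sets. The brightest probe set of a gene, by its mean over the 24 arrays, stands for it, and the others are given beside it.

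Expression was measured on 24 Affymetrix mouse arrays from the jaws of embryos at embryonic day 13.5 on a C57B6 background. Mutant embryos, labelled as Tgfbr2 knockout, came from crosses of Wnt1-Cre;Tgfbr2 fl/+ with Tgfbr2 fl/fl mice, so that Cre, driven by the Wnt1 promoter, deletes the type II TGF-beta receptor in the neural crest and not in epithelium, endothelium, muscle or blood cells of the same tissue. Per the labels, mutants were recognised by cleft palate and a defect of the skull vault, and controls were littermates, whose Cre and floxed alleles are not given. Each jaw was split into its 2 ends, distal and proximal, which gave 8 groups of 3 arrays (2 genotypes, 2 jaws, 2 ends). The sources used here do not say whether embryos were pooled or whether replicates are separate animals, so p-values measure only the spread among these arrays, which may be technical. A set below means the 4 arrays of 1 genotype that share a replicate number. The number of arrays limits the precision.

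TGF-beta ligands bind the type II receptor Tgfbr2, which activates a type I receptor that phosphorylates Smad2 and Smad3, while BMP ligands use other receptors and act through Smad1 and Smad5. Both classes join Smad4 and switch on target genes directly, among them genes that feed back on the pathway. Id1, Id2 and Id3 encode inhibitors of helix-loop-helix transcription factors and are classical BMP targets. Smad7, Skil and Pmepa1 encode inhibitors of Smad signalling, and Ccn1, Ccn2 and Tgfbi encode secreted matrix proteins. Ccn1 and Ccn2 are also targets of YAP and TEAD, and Ccn2 is strongly expressed in growing cartilage.

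The RefSeq promoter table (GRCm38.p6) held 4 of the 9 genes: Ccn1, Id2, Id3 and Tgfbi. Ccn1 had the largest genotype difference of the 9 genes and Tgfbi the widest range between regions, so the 250 bases before their start are shown whole. They are chr3:145649986-145650235 on the minus strand for Ccn1 and chr13:56609336-56609585 on the plus strand for Tgfbi. Capitals mark letters of the motifs searched on both strands: CAGAC or its complement GTCTG (bound by Smad3 and Smad4), GGCGCC (bound by BMP Smads) and CATTCC (bound by TEAD).
Ccn1: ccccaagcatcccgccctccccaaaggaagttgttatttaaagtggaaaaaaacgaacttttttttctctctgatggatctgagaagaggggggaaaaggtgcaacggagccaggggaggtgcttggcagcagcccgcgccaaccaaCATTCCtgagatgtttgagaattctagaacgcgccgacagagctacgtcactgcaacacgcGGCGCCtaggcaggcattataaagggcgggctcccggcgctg
Tgfbi: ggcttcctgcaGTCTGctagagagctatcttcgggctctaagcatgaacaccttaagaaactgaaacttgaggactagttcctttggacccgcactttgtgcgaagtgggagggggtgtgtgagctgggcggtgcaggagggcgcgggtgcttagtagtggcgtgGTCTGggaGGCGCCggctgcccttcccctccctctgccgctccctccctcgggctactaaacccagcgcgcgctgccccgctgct
In Ccn1, CATTCC began 103 bases before the start and GGCGCC 42 bases before it, and CAGAC was not among these letters. In Tgfbi, GTCTG began 239 and 85 bases before the start and GGCGCC 77 bases before it. Of 27025 mouse promoters of that length, 42.1% held CAGAC on either strand, 12.6% held CATTCC and 9.54% held GGCGCC, so a match to CAGAC is common. The palindromes GTCTAGAC (0.174% of promoters) and CACGTG (6.05%) were in none of the 4 windows.

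The Id genes are shown as 30-base windows around 1 match each. The Id2 window lies in chr12:25096093-25096342 (minus strand) and GGCGCC begins 231 bases before its start. The Id3 window lies in chr4:136143572-136143821 (plus strand) and CATTCC begins 203 bases before its start. Id3 also held CAGAC 167 bases and GTCTG 68 bases before its start.
Id2: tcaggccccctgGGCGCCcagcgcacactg
Id3: tcagcgcttcctCATTCCtcgcatccgagg
A match describes the letters in the window and says nothing about binding in these tissues.

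The arrays were checked before any comparison. The 5 mandible markers (Hand2 and 4 Dlx genes) averaged log2 9.81 and 10.16 in control distal and proximal mandible against 8.59 and 9.21 in the control maxilla. The labelled control mandible thus carried its markers. The same check of mutant jaws, and one by maxilla markers, is not given here. Tgfbr2 itself read 11.94 to 12.33 in control and 12.20 to 12.68 in mutant arrays, a difference of 0.31 ± 0.0543 (limma, adjusted p = 0.000296); where its probes lie relative to the deleted part is not given, so they test neither the deletion nor the labelling. Gapdh, read at its 3' and 5' ends as a measure of RNA quality, differed between the ends (3' minus 5'); this Gapdh difference was between -0.07 and 0.16 in control arrays, averaged 0.06 in mutant set 2, and was 0.25 to 0.77 in mutant sets 1 and 3. Mutant sets 2 and 3 held both Xist (13.52 and 13.19) and Y-linked transcripts (8.81 and 9.20). Each control set and mutant set 1 held high levels of 1 kind only. That kind was Y-linked in control set 1 (9.97) and mutant set 1 (10.01). It was Xist in control sets 2 and 3, where the Y-linked mean was 3.82 and 3.88. Every mutant set thus had high Y-linked signal, but of the control sets only set 1 did, so sex and genotype are partly confounded in the genotype comparisons. The array of mutant distal maxilla replicate 1 stood apart: the mean of 10 cartilage markers was 10.81 there against 7.65 and 7.63 in the other arrays of its group. Results that rest on these arrays are given with and without them.

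**Figure D1:**
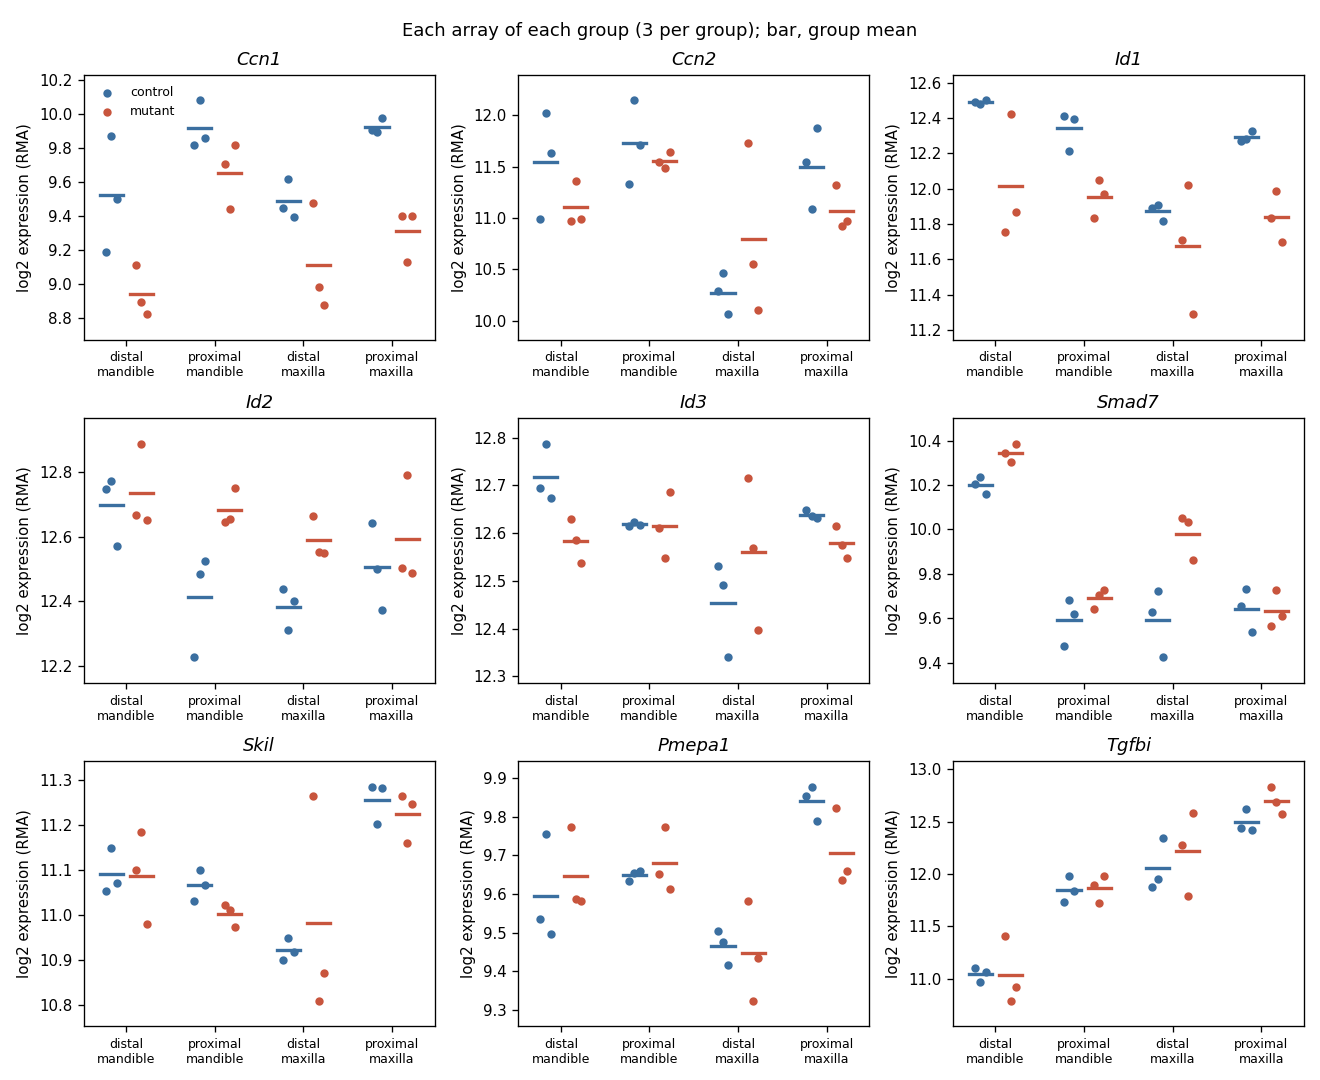
Log2 expression of the 9 genes on every array (points) in the 4 regions, with controls in blue, mutants in red and bars at the group means; each panel has its own axis. Ccn1 and Id1 are lower in mutants in every region by their means, Smad7 is high in both distal mandible groups (10.20 and 10.35), and Tgfbi is low there (11.04 in both).

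The first comparison asked how the targets differed between the genotypes when the 4 regions are averaged. Ccn1 and Id1 fell, Smad7 and Id2 rose by small amounts, and the other 5 genes did not pass the test. The median difference of the 9 genes was -0.02 on the log2 scale, against 0.02 over all genes tested. The 4 of 9 genes called stand beside 33.7% of all genes called in the same fit (18.3% higher and 15.5% lower), so the count itself is near the background. That fit (limma, 24 arrays, Benjamini-Hochberg adjusted p under 0.05 over 13850 genes) counts the arrays of a set as separate samples. With the set as a random block, Ccn1 and Id1 kept their calls (adjusted p = 0.02 and 0.029) and Id2 and Smad7 lost theirs, at a background of 11.6%. With 1 value per set, 3 against 3, 0 of 9 genes passed at a background of 0.578%. The same 4 genes had an unadjusted p under 0.05 there, but the share of all genes with one in that fit is not given here. In the fit to 24 arrays that share was 43.7%, so nothing is read from this count. In bulk tissue, fewer cells of a type and less RNA per cell cannot be told apart, which holds for every difference below.

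**Figure D2:**
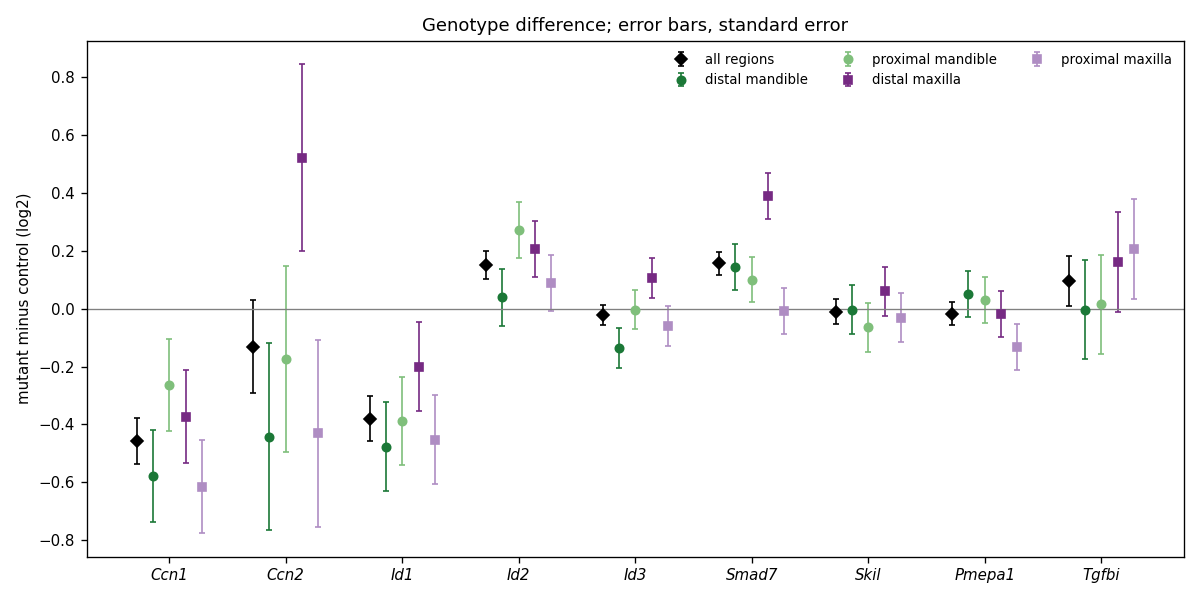
Mutant minus control on the log2 scale for each gene, over all regions (black diamonds) and in each region (colours); bars are standard errors from the fit to 24 arrays. The averages of Ccn1 (-0.46) and Id1 (-0.38) lie below 0, those of Smad7 (0.16) and Id2 (0.15) above it, and the distal maxilla value of Ccn2 (0.52) has a wide error.

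Among the matrix genes, Ccn1 fell most. Ccn1 encodes a secreted protein that binds integrins. In distal mandible it read 9.19, 9.87 and 9.50 in controls and 9.11, 8.89 and 8.82 in mutants. In proximal maxilla it read 9.90, 9.89 and 9.97 in controls and 9.40, 9.13 and 9.40 in mutants. In both regions every mutant array lay below every control array. In proximal mandible the arrays read 9.81, 10.08 and 9.85 against 9.70, 9.44 and 9.82, and in distal maxilla 9.44, 9.62 and 9.39 against 9.48, 8.98 and 8.87. There the groups overlapped through a single mutant array each, which in the distal maxilla was replicate 1, the array with high cartilage markers. The average difference was -0.46 ± 0.08 on the log2 scale, which is 0.728 of the control level (limma, adjusted p = 0.00029).

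The fall of Ccn1 was seen in all mutant sets and all of its probe sets. Set means lay below the control mean by -0.29, -0.60 and -0.48 in mutant sets 1, 2 and 3, and the set means of the genotypes did not overlap, as for 29.9% of all genes. The 3 other probe sets gave -0.56, -0.78 and -0.61 (adjusted p = 6.3e-05, 4.2e-05 and 0.000126). Those at -0.78 and -0.61 were dim, above the 40th percentile on 19 and 17 of the 24 arrays. Without the array of mutant distal maxilla replicate 1 the average was -0.50 (adjusted p = 6.1e-05). It was -0.60 without mutant sets 1 and 3 (adjusted p = 0.000908, background 47.6%) and -0.57 with the Gapdh difference as a covariate (adjusted p = 0.000421, background 42.2%). Without mutant sets 2 and 3, which hold both kinds of sex-linked transcript, it was -0.29 (adjusted p = 0.0351, background 50.0%). In these fits with 1 mutant set, each mutant group is 1 array that is assumed to vary like the controls.

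Ccn2, the close relative of Ccn1, did not pass on average, at -0.13 ± 0.161 (limma, adjusted p = 0.561). Its regional differences went both ways: -0.44 in distal mandible, -0.17 in proximal mandible, 0.52 in distal maxilla and -0.43 in proximal maxilla. In mutant distal maxilla its arrays read 11.73, 10.55 and 10.10, against 10.29, 10.46 and 10.06 in controls. The high value was replicate 1, and without that array the distal maxilla difference was 0.06 and the average -0.25 (adjusted p = 0.146). Mutant sets deviated from the control mean by 0.13, -0.18 and -0.34.

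Tgfbi, a matrix protein named for its induction by TGF-beta, averaged 0.09 ± 0.0859 and did not pass (adjusted p = 0.42). Its set means were 0.24, -0.11 and 0.15 from the control mean, with only mutant set 2, the set with a low Gapdh difference, below it. The other probe sets gave 0.28 (adjusted p = 0.0177), 0.23 (0.0241) and 0.07 (0.535), so 2 of its 4 probe sets were called higher. Tgfbi followed the Gapdh difference within groups with a slope of 0.68 (adjusted p = 0.012, against 50.1% of all genes called for that slope). With this covariate the average turned to -0.12, and without mutant sets 1 and 3 to -0.11. It was called without mutant replicate 2 (0.20, adjusted p = 0.0454) and, at 0.24, without mutant sets 2 and 3 (adjusted p = 0.0283, background 50.0%). No direction is given for it.

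The BMP-responsive Id genes did not move together. Id1 fell, Id2 was called higher by its brightest probe set only, and Id3 did not pass. The Id1 fall was large in mutant sets 1 and 3, whose Gapdh difference was high, and small in set 2.

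Id1 read 12.49, 12.48 and 12.50 in control distal mandible and 11.76, 12.42 and 11.87 in mutants. In proximal mandible it read 12.41, 12.21 and 12.40 against 11.84, 12.05 and 11.97, and in proximal maxilla 12.27, 12.28 and 12.33 against 11.83, 11.99 and 11.70. In these 3 regions every mutant array lay below every control array. In distal maxilla the values were 11.89, 11.91 and 11.82 against 11.71, 12.02 and 11.29, and the array of mutant replicate 2 lay above all controls. The average was -0.38 ± 0.0767, or 0.769 of the control level (limma, adjusted p = 0.000986).

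The 3 mutant sets differed in the size of that fall. Their means were -0.47, -0.13 and -0.54 from the control mean, and sets 1 and 3 are those with a high Gapdh difference. With the Gapdh difference as a covariate the average was -0.12 ± 0.0554 and lost its call (adjusted p = 0.101), and the slope of Id1 on it within groups was -0.84 ± 0.121 (adjusted p = 2.5e-05). Without mutant sets 1 and 3 it was -0.13 ± 0.0382 (adjusted p = 0.0182), with every mutant group at 1 array. Without mutant sets 2 and 3 it was -0.47 (adjusted p = 1.3e-05). Without mutant replicate 2 alone it was -0.50, and Id1 was then called in all 4 regions, where the share of all genes called in that fit is not given. The Gapdh slope was called for about as many genes as not, and whether RNA quality produced the Id1 difference was not tested. Id1 has 1 probe set here, so there is no second reading of it. The mean of 12 endothelium markers, cells in which Id1 is also known to be expressed, was 9.67 in control arrays (9.50 to 9.87) and 9.66 in mutant arrays (9.48 to 9.85). That mean covers members called in opposite directions: 5 of the 12 fell, among them Cldn5 at -0.42 and Pecam1 at -0.31, and 3 rose, among them Plvap at 0.37 and Cdh5 at 0.27. The part of endothelium in the Id1 difference was not tested.

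**Figure D3:**
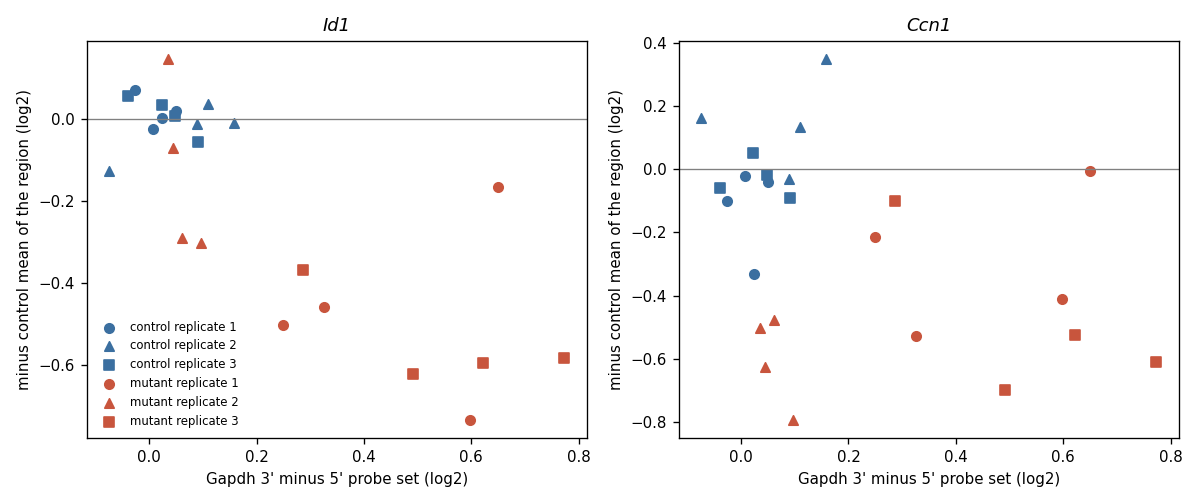
Id1 (left) and Ccn1 (right) on each array, as the log2 difference from the control mean of the same region, against the Gapdh 3' minus 5' difference; colours give the genotype and symbols the replicate number. Mutant set 2 (red triangles) shares the control range of the Gapdh difference: there Id1 averages -0.13 and Ccn1 -0.60 from the control mean.

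Id2 gave 0.15 ± 0.0488 (adjusted p = 0.0225), with set means 0.12, 0.22 and 0.11 above the control mean. In proximal mandible the mutant arrays at 12.64, 12.65 and 12.75 lay above controls at 12.23, 12.48 and 12.52. Its other probe sets went the other way, at -0.12 (adjusted p = 0.157) and -0.17 (0.216), and the mean of all its probe sets gave -0.05. Without mutant sets 2 and 3 the brightest probe set gave 0.12 and was not called (adjusted p = 0.154). The probe sets disagree, so Id2 has no settled direction. Id3 averaged -0.02 ± 0.0343 (adjusted p = 0.639) and its group means spanned 0.26 over the 8 groups.

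Among the inhibitors, Smad7 rose by 0.16 ± 0.0393, a fold of 1.11 (adjusted p = 0.00503). Smad7 blocks type I receptors and brings ubiquitin ligases to them. The set means were 0.14, 0.19 and 0.14 above the control mean, and its other probe set gave 0.21 (adjusted p = 0.00144). It remained at 0.18 with the Gapdh covariate (adjusted p = 0.0107) and at 0.19 without mutant sets 1 and 3 (adjusted p = 0.0239). Without mutant sets 2 and 3 it was 0.14 and was not called (adjusted p = 0.0635). Skil, a co-repressor of Smads that TGF-beta signalling degrades and then induces, averaged -0.01 ± 0.0423 (adjusted p = 0.874), but without mutant sets 2 and 3 it was 0.08 and was called (adjusted p = 0.0473, background 50.0%). Pmepa1, which sequesters receptor Smads, averaged -0.02 ± 0.0397 (adjusted p = 0.759), and its other probe sets gave -0.22 (0.0644) and -0.06 (0.654). The second Skil probe set, which lay below the 40th percentile on every array, gave 0.00.

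Within single regions, 2 of the 36 gene and region pairs were called, against 4.76% of all such pairs. Both were in the maxilla: Smad7 in its distal end and Ccn1 in its proximal end. Smad7 read 9.63, 9.72 and 9.42 in control distal maxilla and 10.05, 10.03 and 9.86 in mutants, so all mutant arrays lay above all controls. The difference was 0.39 ± 0.0786, a fold of 1.31 (limma, adjusted p = 0.00759, background 7.08%). Its other probe set gave 0.42 there (adjusted p = 0.00912). Without the array of mutant replicate 1 it was 0.35 (adjusted p = 0.0349). It was not called without control replicate 1 (adjusted p = 0.0522) or control replicate 3 (0.104). Elsewhere Smad7 differed by 0.14 in distal mandible, 0.10 in proximal mandible and -0.01 in proximal maxilla, none called.

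Ccn1 in proximal maxilla differed by -0.62 ± 0.16, or 0.653 of the control level (adjusted p = 0.0317, background 5.7%), and all of its 4 probe sets were called there (the others with adjusted p = 0.0157, 0.0147 and 0.0129). Leaving out any single control replicate, or mutant replicate 2 or 3, ended the call of the brightest probe set, with adjusted p between 0.0504 and 0.19. The Y-linked mean as a covariate also ended that call, and sex and genotype are partly confounded here. The other regions gave -0.58 in distal mandible (adjusted p = 0.0921, background 0.895%), -0.26 in proximal mandible (0.397, background 5.36%) and -0.37 in distal maxilla (0.169). With the 6 arrays of the compared groups alone, neither Ccn1 in proximal maxilla (adjusted p = 0.0935) nor Smad7 in distal maxilla (0.24) passed. Id1 was called in no region, at -0.48 and -0.39 in distal and proximal mandible and -0.20 and -0.45 in distal and proximal maxilla. Leaving out single replicates moved the count of called pairs between 0 and 6: 0 without control replicate 1 or 3, 1 without control replicate 2 or mutant replicate 3, and 6 without mutant replicate 2. The share of all pairs called in each of these fits is not given here. In the arrays alone, mutants and controls did not overlap for Ccn1, Id1, Id3 and Smad7 in distal mandible, where 18.3% of all genes did the same. They did not overlap for Id1, Id2 and Skil in proximal mandible (30.0%), for Id2 and Smad7 in distal maxilla (23.9%), and for Ccn1, Id1 and Id3 in proximal maxilla (24.9%).

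Whether the genotype difference itself differed between jaws or between ends was tested as an interaction. None of the 9 genes passed in either test with limma, as for all genes (0.0% called in each). The smallest unadjusted p was that of Smad7 between ends, where the distal difference exceeded the proximal by 0.22 ± 0.0786 (limma, adjusted p = 0.9998). It was the only unadjusted p under 0.05 among the genes, while 3.47% of all genes had one between jaws and 3.10% between ends. The rise of Smad7 is therefore not shown to differ between distal and proximal ends.

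Ccn2 was set beside cartilage because the control groups with more cartilage signal also had more Ccn2. The 10 cartilage markers (among them Sox9, Col2a1 and Acan) exclude the genes described here; this relation was examined after the values were seen. In control distal mandible the marker mean was 8.83, 11.07 and 10.20 and Ccn2 10.99, 12.02 and 11.63. In control distal maxilla the marker mean was 7.89, 7.57 and 7.60 and Ccn2 10.29, 10.46 and 10.06. Thus the replicates of control distal mandible varied together in both measures, and control distal maxilla was low in both. In mutant distal mandible they did not vary together: the marker mean was 10.47, 9.98 and 9.71 and Ccn2 10.97, 11.36 and 10.99. Within groups Ccn2 rose by 0.44 ± 0.053 per log2 unit of the marker mean (limma, adjusted p = 5.2e-05), where 2.3% of all genes were called. Ccn1 followed with 0.21 ± 0.0312 (adjusted p = 0.000809) and Skil with 0.10 ± 0.0198 (0.00979), and the other 6 genes were not called. Without the array of mutant distal maxilla replicate 1, Ccn2 kept 0.45 (adjusted p = 0.0173) and Ccn1 0.26 (0.0147), while Skil was at 0.06 (0.874), at a background of 0.448%.

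With the marker mean as a covariate, the average genotype difference of Ccn2 was -0.33 ± 0.0777 and was called (adjusted p = 0.00399, background 32.1%). Ccn1 was at -0.55 and was then called in all 4 regions. It was at -0.58 and -0.45 in distal and proximal mandible and -0.58 at both ends of the maxilla. The fit was chosen after the values were seen, and its share of all genes called within each region is not given here. None of the 10 cartilage markers was called in the average comparison (limma), and their median was 0.41. Their mean ran from 7.57 to 11.17 in control arrays and from 7.63 to 11.61 in mutant arrays.

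**Figure D4:**
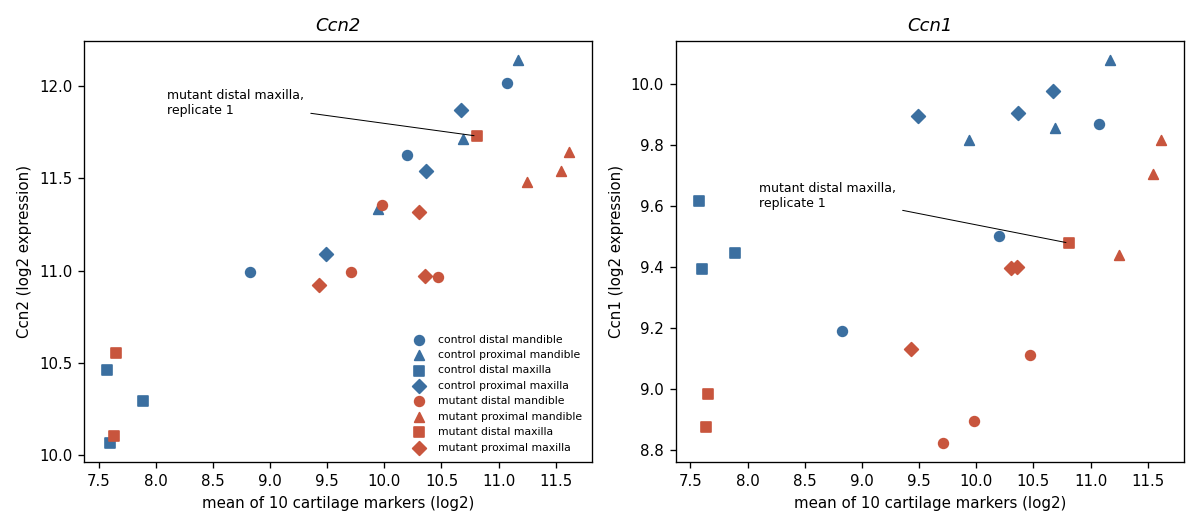
Ccn2 (left) and Ccn1 (right) on each of the 24 arrays against the mean of 10 cartilage markers, all on the log2 scale; colour gives the genotype and symbol the region. The labelled array of mutant distal maxilla has a marker mean of 10.81 and Ccn2 at 11.73, far from the other arrays of its group.

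In control embryos 5 of the 9 genes differed between the distal ends of the jaws and 3 between the ends of the maxilla. Of 36 gene and comparison pairs 10 were called, against 7.8% of all such pairs. Between the jaws, the distal mandible had more Ccn2, Id1, Id3 and Smad7 and less Tgfbi than the distal maxilla (5 of 9 genes, background 9.21%). At the proximal ends no gene was called with limma (background 2.61%), and Tgfbi was at -0.64 (adjusted p = 0.0534). There 3 of 9 had an unadjusted p under 0.05, where 10.96% of all genes did. With the set as a fixed replicate block, which these arrays allow because they deviate together within sets, 16 pairs were called. The added pairs were Id2 between distal jaws and between mandible ends, Tgfbi between proximal jaws, Ccn1 between the ends of both jaws, and Id1 between maxilla ends. The share of all pairs called in that fit is not given here. Leaving out 1 control replicate left 5, 4 and 4 pairs without replicates 1, 2 and 3, of which Smad7 in both of its comparisons and Tgfbi between distal jaws stood each time.

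Smad7 had the smallest adjusted p of these pairs. It read 10.21, 10.24 and 10.16 in control distal mandible, against 9.63, 9.72 and 9.42 in distal maxilla and 9.47, 9.68 and 9.62 in proximal mandible. The distal mandible arrays lay above all of these without overlap (35.3% of all genes for the jaws and 41.6% for the ends). The differences were 0.61 ± 0.0786 from the distal maxilla, a fold of 1.53 (limma, adjusted p = 4.2e-05), and 0.61 from the proximal mandible (adjusted p = 2.9e-05, background 13.3%). Its other probe set gave 0.46 (adjusted p = 0.00166) and 0.37 (0.00704).

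Tgfbi had the opposite pattern. It read 11.10, 10.97 and 11.06 in control distal mandible, 11.88, 11.96 and 12.34 in distal maxilla, 11.74, 11.98 and 11.84 in proximal mandible and 12.44, 12.62 and 12.42 in proximal maxilla. No array of the distal mandible reached any other control array. The distal mandible had 0.495 of the distal maxilla level (log2 -1.01 ± 0.172, adjusted p = 0.000598) and 0.571 of the proximal mandible level (log2 -0.81, adjusted p = 0.00313). All 3 other probe sets were called in both comparisons, between -0.64 and -1.09. Without control replicate 2 the difference within the mandible was -0.71 and lost its call (adjusted p = 0.0884).

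Id1 and Id3 followed the distal jaws. Id1 was 0.62 ± 0.153 higher in distal mandible than in distal maxilla, a fold of 1.54 (adjusted p = 0.0128), and its control arrays in the 2 regions, given above, did not overlap. Id3 read 12.69, 12.79 and 12.67 against 12.53, 12.49 and 12.34, a difference of 0.26 (adjusted p = 0.0172). Both calls were lost when any single control replicate was left out (adjusted p between 0.0687 and 0.241). Id2 was at 0.31 and just missed the threshold (adjusted p = 0.0507), while its other probe sets were called at 0.53 and 0.82.

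Between the ends of the control maxilla, all 9 genes lay lower distally, with a median of -0.37 against 0.01 over all genes. Of these, 3 were called (background 6.06%): Ccn2 at -1.23 (adjusted p = 0.0265), Pmepa1 at -0.37 (0.00646) and Skil at -0.33 (0.0209). Pmepa1 read 9.51, 9.48 and 9.42 distally and 9.85, 9.88 and 9.79 proximally. Skil read 10.90, 10.95 and 10.92 distally and 11.28, 11.20 and 11.28 proximally. Neither gene's arrays overlapped between the ends (34.3% of all genes). Their other probe sets were also lower distally but were not called. These were at -0.36 and -0.26 for Pmepa1 (limma, adjusted p = 0.314 and 0.66) and -0.21 for Skil (0.426). Pmepa1 and Skil lost their calls without any single control replicate, and Ccn2 without replicate 1 or 3. Between the distal jaws Ccn2 lost its call without control replicate 2 (adjusted p = 0.134) or 3 (0.222). With the cartilage marker mean as a covariate, Ccn2 was at -0.12 between the maxilla ends and at 0.23 between the distal jaws, neither called. In that fit Pmepa1 was at -0.22 and Skil at -0.09, not called, Id1 between the distal jaws was at 0.67 (adjusted p = 0.0869) and Id3 at 0.13. The distal maxilla was also the region with the least cartilage signal, as given above.

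**Figure D5:**
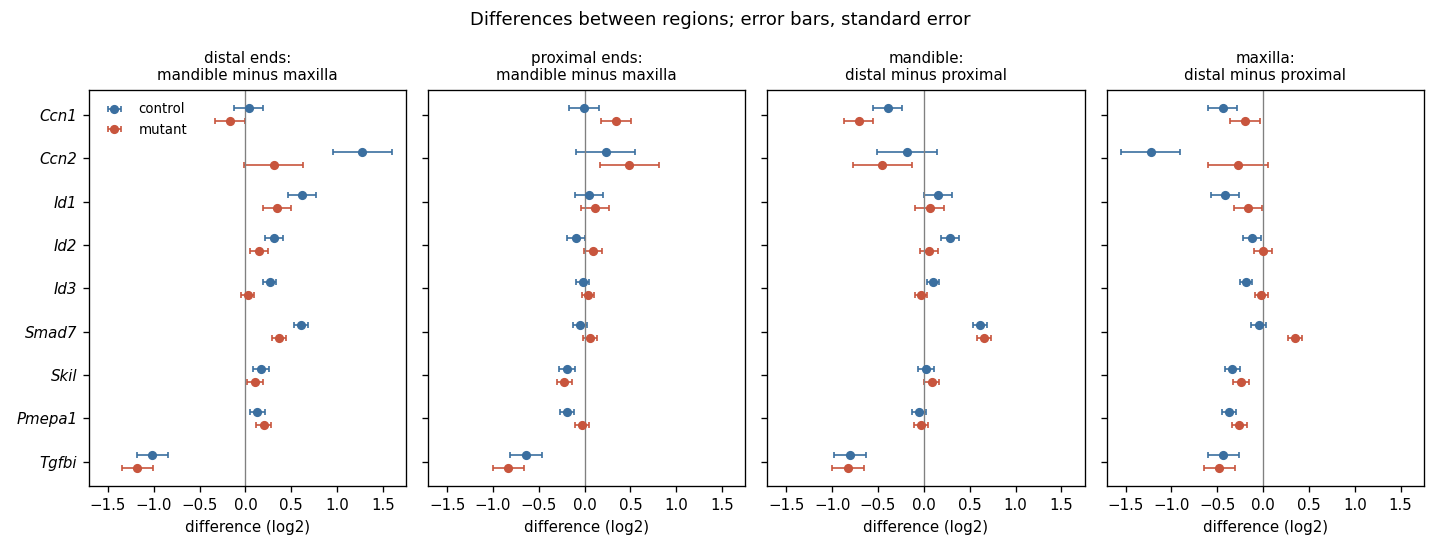
Differences between regions on the log2 scale for the 9 genes in controls (blue) and mutants (red), with standard errors from the fit; the panels are the 4 comparisons named above them. Smad7 lies near 0.6 and Tgfbi near -0.8 between the mandible ends in both genotypes, and Ccn2 has the widest errors.

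In mutants 7 of 36 pairs were called, against 7.91% of all such pairs, and Tgfbi and Smad7 made up 6 of them. Tgfbi was lower in distal mandible than in distal maxilla by -1.18 (adjusted p = 0.000423, background 4.92%), in proximal mandible than in proximal maxilla by -0.83 (0.00586, background 5.69%) and in distal than in proximal mandible by -0.83 (0.00211, background 15.9%). Smad7 was higher in distal mandible than in distal maxilla by 0.36 (0.00912), in distal than in proximal mandible by 0.65 (1.2e-05) and in distal than in proximal maxilla by 0.35 (0.0132, background 5.15%). Its other probe set was called only within the mandible (0.43), with 0.25 and 0.19 in the other comparisons. Ccn1 was lower in distal than in proximal mandible by -0.71 (adjusted p = 0.004), and all of its probe sets were called there. Without the array of mutant distal maxilla replicate 1, 11 pairs were called, at a share of all pairs that is not given here. The added ones were Skil in 3 comparisons and Pmepa1 between the maxilla ends. Smad7 between the maxilla ends was not called without mutant replicate 1 (adjusted p = 0.157) or 2 (0.0625), Smad7 between the distal jaws not without mutant replicate 3 (0.24), and Ccn1 not without mutant replicate 3 (0.0883).

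Over the 8 groups the levels of each gene formed an order in which most neighbours overlapped in their arrays. Smad7 had the clearest order: mutant distal mandible (10.35), control distal mandible (10.20) and mutant distal maxilla (9.98) were each apart from the next, and the other 5 groups lay between 9.59 and 9.69 and overlapped. For Tgfbi the order ran from mutant proximal maxilla (12.70) to both distal mandible groups (11.04), and the only neighbours without overlap were control proximal mandible and control distal mandible. Id1 was highest in control distal mandible (12.49), apart from the next group, and lowest in mutant distal maxilla (11.67). For Ccn1, from control proximal maxilla (9.92) to mutant distal mandible (8.94), and for Ccn2, Id2 and Pmepa1, all 7 pairs of neighbours overlapped.

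By Pearson correlation over the 8 group means, as a description, Smad7 was most like Kctd15 (0.991), Adgra2 (0.988) and Pdlim5 (0.985), and Tgfbi most like Ryr3 (0.987), Ajap1 (0.987) and Slitrk5 (0.986). Id1 was most like Bambi-ps1 (0.959), whose name marks it as a pseudogene of the BMP target Bambi, Dok1 (0.957) and Ankib1 (0.947). Ccn2 was most like Cytl1 (0.948), a secreted protein of cartilage, Tspan8 (0.938) and Foxa3 (0.932). Ccn1 was most like Ubfd1 (0.987), Zc3h7a (0.986) and Rab24 (0.985). The nearest genes were Slc38a2 for Id2 (0.969), Zdhhc17 for Id3 (0.923), Clmp for Pmepa1 (0.974) and Atcay for Skil (0.950). The group means share their arrays between genes, and the points are only 8.

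Other genes of the pathway were read in the average comparison from lists by role, against the same background of 33.7%. Of 17 other TGF-beta targets, 2 rose and 4 fell, with a median of 0.01. Scx, a transcription factor of tendon progenitors, fell by 1.24, Tagln, an actin-binding protein of smooth muscle, by 0.32, the co-repressor Tgif1 by 0.24 and the protease inhibitor Timp3 by 0.22. The collagen Col3a1 and the transcription factor Snai2 rose by 0.14 and 0.15. Of 12 other BMP targets, Bambi, a decoy receptor, rose by 0.28, and the BMP antagonists Grem1 and Nog fell by 0.39 and 0.23. Of 16 receptors and Smads, 6 rose and 2 fell: the co-receptors Tgfbr3 and Eng rose by 0.34 and 0.23, and Smad2 fell by 0.18. Of 12 Smad inhibitors and co-repressors, 3 rose and 3 fell, with Ldlrad4, which sequesters Smads as Pmepa1 does, at -0.41 and the ubiquitin ligases Wwp1 and Smurf1 at 0.32 and 0.25. Of 14 YAP and TEAD targets, 2 rose and 1 fell: Ankrd1 fell by 0.66 and Lats2 and Axl rose by 0.22 and 0.16. Among 8 relatives of the genes, Ccn3, of the Ccn1 family, rose by 0.93 (adjusted p = 1.1e-05) and Ldlrad4 fell, while Ccn4 (-0.17), Id4 (0.29), Smad6 (0.12) and Ski (-0.03) were not called.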

How the data were processed

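The deposited table holds 1 log2 value per probe set and array, which the authors made with RMA according to the submitters' processing notes; its version and the arrays normalized together are not stated there. Per the labels' protocols, biotin-labelled cRNA was made from 5 µg RNA purified on RNeasy columns. Of 45101 probe sets, 34958 name 1 gene symbol, 932 several and 9211 none. Genes entered the tests if, on 3 arrays or more, their brightest probe set exceeded the 40th percentile of all values of that array. limma 3.58.1 in R 4.3.3 (lmFit, contrasts.fit, eBayes) modelled the 24 arrays with a coefficient for each of the 8 groups, leaving 16 residual degrees of freedom, and the call threshold was 0.05 after Benjamini-Hochberg adjustment over 13850 genes. Log2 differences carry standard errors of that fit.

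Within sets the arrays shared deviations (random block correlation 0.40). The correlations of deviations from the group means were 0.004 to 0.572 within control sets, 0.201 to 0.697 within mutant sets and -0.134 to 0.403 between control and mutant arrays of the same number. Numbers were therefore taken to pair regions within a genotype, from the values and not the labels (the 0.004 was between proximal jaws), and not to pair genotypes. No 2 arrays held identical values. On simulated data, 94 of 100 genes changed by 0.5 and 99 of 100 changed by 1 were recovered in the average comparison. There were 13 false calls in the simulation of 13850 genes. The simulated arrays varied independently, without the deviations shared within sets. The simulation therefore cannot tell how many false calls arise when arrays of a set vary together, as they do here. The genes, the lists and the named genes of each list (up to 4 called genes with the largest average difference, and the 3 genes most like each target) were chosen with earlier results of these data known. Fits without mutant sets 2 and 3, with the cartilage covariate and without the array of mutant distal maxilla replicate 1 were chosen after seeing the data.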

Additional observations from a re-analysis of the deposited data

How the results depend on the processing

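In the average comparison 4 target genes were called. This became 2 with the set as a random replicate block and 0 with 1 value per set, and 3 to 4 with single replicates left out. Within regions 2 pairs were called, against 0 with the arrays of the compared groups alone, 5 with the Gapdh covariate, 1 with the Y-linked mean as a covariate, 4 without mutant replicates 1 and 3, 7 without mutant replicates 2 and 3, 6 with the cartilage covariate, and 0 to 6 with single replicates left out. For differences between jaws and ends 0 pairs were called, against 1 without mutant replicates 2 and 3 (Id1). Control comparisons gave 10 pairs, against 17 with the random block, 16 with the set as a fixed replicate block, 17 with the Gapdh covariate, and 4 to 5 with single replicates left out. Mutant comparisons gave 7 pairs, against 4 with the compared groups alone, 11 without mutant distal maxilla replicate 1, and 5 to 7 with single replicates left out. The share of all pairs called in these other fits is not given here. In the average comparison that share was 33.7% of all genes, 11.6% with the random block and 42.2% with the Gapdh covariate. A changed count of pairs is therefore not read as a result about these genes.

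Signs of small averages turned. Ccn2 was at 0.021 with the Y-linked covariate. Without mutant replicates 2 and 3, Ccn2 was at 0.13, Id3 at 0.035, Pmepa1 at 0.070 and Skil at 0.079. Id2 was at -0.046 with the mean of all probe sets. Pmepa1 lay between -0.062 and 0.0086, and Skil between -0.054 and 0.018, with single replicates left out. Tgfbi was at -0.12 with the Gapdh covariate and -0.11 without mutant replicates 1 and 3. The cause was not tested. The replicate number as a fixed replicate block, no filter on dim genes and renewed quantile normalization ended no call described above. Over all genes the 4671 calls became 1612 with the random block, 80 with 1 value per set, 2933 with the Y-linked covariate, and 2902 to 6971 with single replicates left out. All brightest probe sets lay above the 68th percentile of every array, so dim signal does not limit them; the 3 sets per genotype do.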

Other observations

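Immediate early genes respond to growth factors and to handling of tissue within minutes. Of 14 tested in the average comparison, 4 rose and 1 fell (limma, adjusted p under 0.05), a share near the 33.7% of all genes that were called, and their median was 0.15. Ier2 fell by 0.33 (adjusted p = 4.5e-06), while Junb rose by 0.23, Ier3 by 0.20, Dusp1 by 0.15 and Klf4 by 0.15. The time from dissection to extraction was not given for either genotype, and its part was not tested.

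Markers of other cells in the tissue are given beside the share of all genes called in the same comparison, which was 18.3% higher and 15.5% lower. Of 12 macrophage markers 6 fell and 1 rose, and their mean was 9.28 in control arrays (8.92 to 9.59) and 9.05 in mutant arrays (8.62 to 9.32). Of 9 pericyte and smooth muscle markers 5 rose and 1 fell, with a mean of 9.70 in control (9.24 to 10.15) and 9.93 in mutant arrays (9.48 to 10.28). Of 12 endothelium markers 3 rose and 5 fell. The remaining lists had at most 2 called members each, and nothing is read from these counts: 1 of 11 epithelium, 1 of 6 bone, 2 of 9 neuron and glia, 2 of 9 neural crest mesenchyme and 2 of 5 maxilla markers rose and none of them fell, 2 of 12 skeletal muscle and 2 of 5 red blood cell markers fell and none rose, and none of the 5 mandible markers passed. Their part in the differences of the 9 targets was not tested.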
